A study of Microtus ochrogaster with 23 samples.

Results

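The gene models described here are the very long ones, those that span at least 300 kb of the prairie vole (Microtus ochrogaster) genome from their lowest to their highest annotated base. Of the 22561 nuclear gene models outside the X chromosome in the deposited count table, 344 (1.52%) reached this span, and the other 22217 are the comparison throughout. The span alone chose them, so their large spans are a description and not a result.

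A gene of this size is mostly intron. RNA polymerase must travel the whole distance before the transcript is complete, and the splicing machinery must join exons that lie far apart, so such genes are slow to express. In mammals, the longest genes are known to be rich in neuronal adhesion molecules, synaptic scaffolds, ion channels and axon guidance receptors, and many of them are transcribed mainly in the brain.

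The study sequenced ribosomal RNA-depleted RNA from punches of the dentate gyrus, the input region of the hippocampus, with 1 library per animal. The 23 samples came from wild-type adult voles that had all been exposed to an unfamiliar pup. Virgin males that attacked the pup formed the "Attacker" group (n = 6) and virgin males that cared for it the "Parental" group (n = 6), while pair-bonded parents with a litter formed the "Father" (n = 5, males) and "Mother" (n = 6, females) groups. The names of the 23 count columns match no sample label, so no column could be tied to an animal or a group. They were not used, and no expression level, depth, tissue marker or group difference is reported. Every value below describes the gene models themselves, in coordinates of the MicOch1.0 genome. The values are complete counts over 1 annotation, so replicate error does not enter and nothing was tested.

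The very long gene models had a median span of 429 kb, with quartiles at 352 and 612 kb. A total of 143 spanned 300 to 400 kb, 73 spanned 400 to 500 kb, 99 spanned 500 to 1000 kb, and 29 spanned 1000 kb or more. Just inside the limit lay Fars2, a mitochondrial phenylalanyl-tRNA synthetase (301236 bp), the ephrin receptor Epha3 (301137 bp) and the integrin subunit Itga9 (300541 bp). Just outside it lay the polarity protein gene Patj (299923 bp), the extracellular matrix gene Spon1 (299908 bp) and the myosin gene Myo1d (298802 bp).

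Among the models that could be named by a RefSeq gene at the same place, the longest was Cntnap2, a contactin-associated membrane protein of axons (ENSMOCG00000018229). It lies on linkage group LG12 from 113525 to 2248044 on the minus strand and spans 2134520 bp. Its 24 exonic blocks add up to 3996 bp, and its longest intron, the first from the 5′ end, measured 572 kb. Lsamp, a GPI-anchored adhesion protein of limbic neurons (ENSMOCG00000015953), follows on chromosome 2 from 50800142 to 52901713 on the plus strand. It has only 1126 bp of exon in 11 blocks over 2101572 bp, and a first intron of 781 kb.

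The next 7 described by span are of varied function. Magi2, a synaptic scaffold on chromosome 26, spans 1266818 bp, and Ctnna3, an alpha-catenin on LG2, spans 1260084 bp. Gpc5, a glypican on chromosome 17, spans 1181407 bp, and in contrast to Cntnap2 and Lsamp its longest intron was the last (616 kb). Opcml, an adhesion protein related to Lsamp, spans 1134722 bp on chromosome 5 with 1099 bp of exon. The presynaptic adhesion gene Nrxn3 (1110959 bp, chromosome 1), the cGMP-dependent kinase gene Prkg1 (1105845 bp, chromosome 8) and the cAMP phosphodiesterase gene Pde4d (1100949 bp, chromosome 19) complete the list. These genes differed by several-fold in exonic length, from 1099 bp in Opcml to 3996 bp in Cntnap2.

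**Figure D1:**
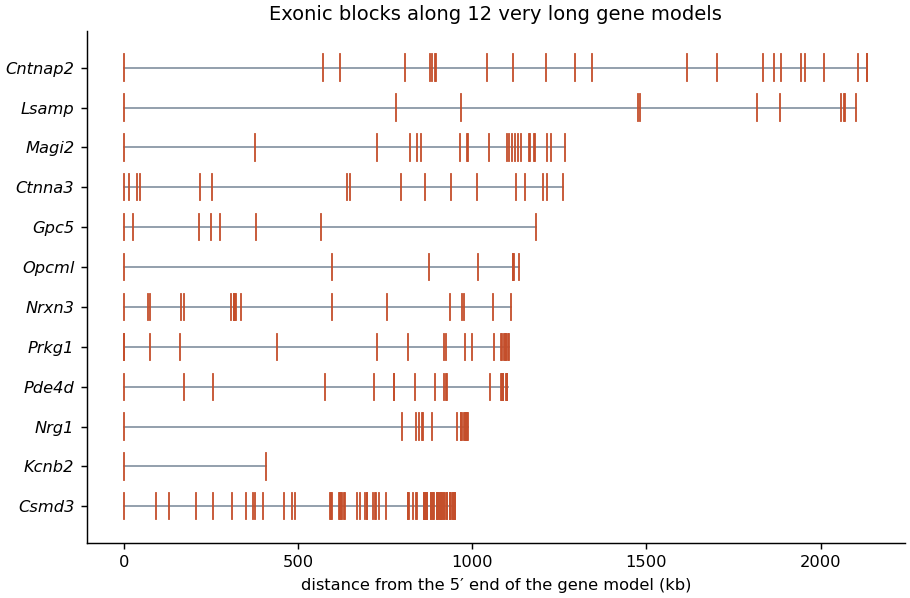
Exonic blocks (vertical marks) along 12 very long gene models, drawn from the 5′ end of each (horizontal axis, kb). The 9 models described above by span are shown with Nrg1, Kcnb2 and Csmd3, which were chosen after their values were seen. Cntnap2, Lsamp and Nrg1 open with one wide gap, Gpc5 ends in its widest gap, and Csmd3 has 71 blocks over 951 kb with a widest gap of 102 kb.

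A very long span went with a modest exonic length. The median very long model had 3079 bp of exon in 18 blocks, where blocks are annotated exons merged when they overlap. The medians over the other nuclear models were 1414 bp and 6 blocks, and over the 17746 of them with at least 2 blocks 1796 bp and 8 blocks. Blocks were smaller in the very long models, with a median of 153 bp per block against 190 bp. The exonic share of the span had a median of 0.606% in the very long models and 16.9% in the others. It was 11.6% in the others with at least 2 blocks. The span is the denominator of this share, so the span rule largely fixes the contrast. The extremes were wide, from 207 bp of exon in a 567 kb model within Lrp1b (ENSMOCG00000020186) to 27343 bp in 141 blocks in ENSMOCG00000003007 on LG9.

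Among the very long models, span carried almost no information on exonic length. Across gene models, which are not independent replicates, Spearman's rho between span and exonic length was -0.02 in the 344 very long models and 0.64 in the 17746 other models with at least 2 blocks. For the number of blocks it was 0.03 and 0.69. The span classes showed the same, with median exonic lengths of 2955 bp at 300 to 400 kb, 3342 bp at 400 to 500 kb, 3207 bp at 500 to 1000 kb and 2247 bp at 1000 kb or more. A narrower range of spans by itself lowers a correlation, and the part this plays was not tested.

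**Figure D2:**
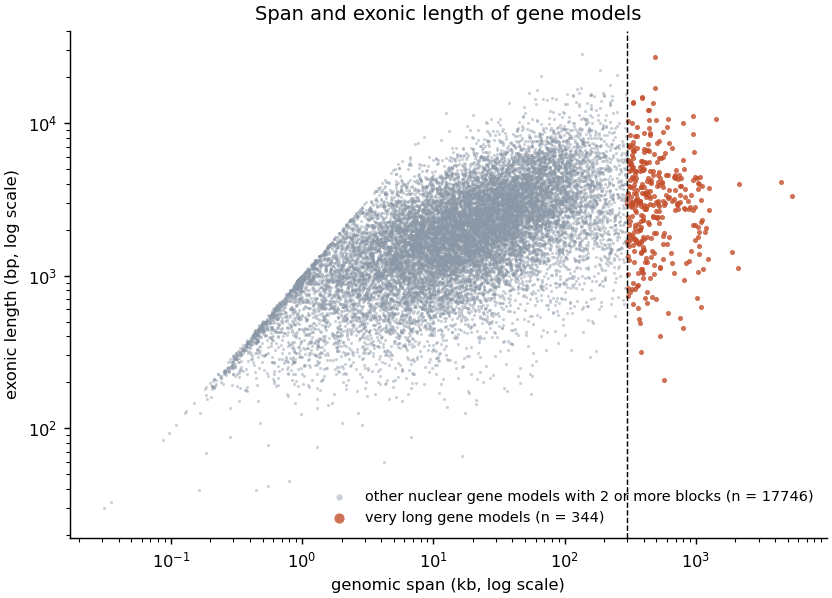
Genomic span (horizontal, kb, log scale) against exonic length (vertical, bp, log scale) for 344 very long and 17746 other nuclear gene models with at least 2 exonic blocks, 1 point each. The cloud of other models rises with span, while the very long models range from 207 to 27343 bp, with median exonic lengths of 2955, 3342, 3207 and 2247 bp from the shortest to the longest span class.

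The 344 models hold a large part of the sequence inside gene models and a small part of its exons. Together they cover 190 Mb, or 24.7% of the 770 Mb that lie inside any of the nuclear gene models. Without the 2 longest models, an alternative chosen after seeing the data, this was 182 of 765 Mb (23.8%). All 344 together hold 3.06% of the exonic bases (1302 of 42493 kb) and 3.96% of the exonic blocks. Of the 656 introns of at least 100 kb, 468 (71.3%) belong to them. In all, 265 of the 344 (77.0%) have such an intron, and 0.842% of the other models do. The span rule largely fixes this contrast, since the other models had a median span of 9.85 kb and an upper quartile of 31.2 kb, and most cannot hold an intron of 100 kb. The other 79 very long models reach their span with smaller introns alone, while 137 have 1 intron of this size, 82 have 2, 24 have 3, 16 have 4, 5 have 5 and 1 has 6.

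The longest intron measured a median of 160 kb in the very long models and 5.23 kb in the others. As a share of the span, it was the same size in both, at 33.5% in the very long models and 33.5% in the others with an intron. The share held over the span classes, with medians of 34.4%, 33.4%, 32.4% and 30.9% from the shortest to the longest class. The remaining introns were long too, since the median intron within a model measured 8566 bp at the median of the very long models and 1280 bp at that of the others.

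**Figure D3:**
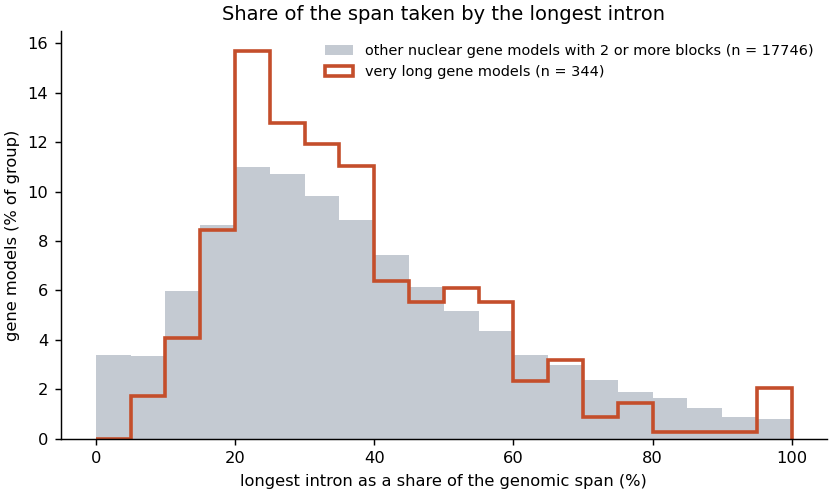
Share of the genomic span taken by the longest intron (horizontal, %) in the 344 very long gene models (line) and the 17746 other nuclear models with at least 2 exonic blocks (filled), as a percent of each group (vertical). Both distributions have their median at 33.5% and reach above 99%.

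Individual genes filled this range from end to end. Kcnb2, a voltage-gated potassium channel subunit (ENSMOCG00000017006, LG5 from 12193689 to 12600632), consists of 2 blocks around a single intron of 404 kb, which is 99.3% of its span. The heparan sulfate sulfotransferase gene Hs6st3 has the same plan, with 2 blocks and an intron of 647 kb (99.8%). In Kcnd2, another potassium channel gene, the first of 5 introns takes 482 kb (96.5%), and in the neuregulin gene Nrg1 the first takes 798 kb of 988 kb (80.8%). At the other end, the axonemal dynein gene Dnah9 has 69 blocks over 334 kb and no intron above 27.6 kb (8.27%). Kalrn, a guanine nucleotide exchange factor of dendritic spines, has 71 blocks over 603 kb and a longest intron of 63.7 kb (10.6%), and Reln, a secreted protein that guides neuronal migration, has 66 blocks over 440 kb and a longest intron of 64.0 kb (14.5%). The genes of this paragraph were chosen after their values were seen.

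The longest intron tended to lie near the 5′ end in both groups. Of the 321 very long models with at least 5 introns, it was the first in 119 (37.1%), among the first 3 in 201 (62.6%) and the last in 11 (3.43%). The shares in the 11389 other models with at least 5 introns were 35.4%, 60.6% and 5.58%. A total of 77 very long models (22.4%) had at least 50% of the span in 1 intron, and the share over the 17746 other models with an intron was 24.7%. Over all 22217 other models, those without an intron included, it was 19.7%.

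The very long models were spread over the genome. They lay on 17 of 17 chromosomes, on 10 of 10 linkage groups and on 47 of the 332 unplaced scaffolds with gene models. They made up 1.59% of the models on chromosomes (193 of 12103), 1.64% of those on linkage groups (63 of 3837) and 1.33% of those on unplaced scaffolds (88 of 6621). Chromosomes 1 and 6 held the most, with 18 each, followed by chromosome 7 with 17. The highest share of any chromosome was on chromosome 26, with 6 of 87 models (6.90%). The strands were used about equally, with 179 of 344 (52.0%) on the plus strand.

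Some very long genes lie side by side. In 17 runs, 35 very long models followed each other with no other model between them. The longest run held 3, namely Malrd1, Plxdc2 and Nebl over 1.85 Mb of chromosome 16. Among the named pairs are the paralogous glypicans Gpc5 and Gpc6 on chromosome 17 from 27592655 to 30094326 and the paralogous sorting receptors Sorcs3 and Sorcs1 over 2.48 Mb of chromosome 8. Other pairs combine unlike genes, such as Cadps, a regulator of vesicle priming, and the synaptic vesicle gene Synpr (1.17 Mb, chromosome 6), or Kcnq5, a potassium channel, and Rims1, a scaffold of the presynaptic active zone (1.25 Mb, LG2).

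The table gives no gene names, so the very long models were matched by position to RefSeq genes of the same assembly. Of the 256 on sequences named alike in both annotations, 238 (93.0%) had a RefSeq gene with which they shared at least 50% of each span. The share among the other models on these sequences was 80.3%. All of the 238 matched genes are protein-coding in RefSeq, against 87.4% of the genes matched by other models. The 2 annotations gave nearly the same span for most of them, with a median of 99.5% (54.9% to 168%) of the RefSeq span, and 200 of 238 lay within 10%. In 232 of 238 the RefSeq gene also reached 300 kb.

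Adhesion molecules of the immunoglobulin superfamily and the contactin-associated proteins held the highest share of very long members of any list of gene families examined. Of the 15 matched genes of this list, 10 were very long, and the median span of the list was 364 kb. The median span over the 12832 matched nuclear models was 14.9 kb, and 238 of them (1.85%) were very long. These proteins join neurons to each other or to glia. Besides Cntnap2, Lsamp and Opcml, the very long members were Cntnap5 (957 kb), Cadm2 (916 kb), Cntn5 (694 kb, or 1201 kb in RefSeq), Negr1 (677 kb), Ncam2 (364 kb), Cadm1 (335 kb) and Dscaml1 (332 kb). The longest intron was the first in 9 of these 10, and in Dscaml1 it was the fourth. Over all very long models with at least 5 introns it was first in 37.1%. Very long members of other lists varied. It was first in 0 of 3 neurexins and partners, 0 of 3 GABA-A receptors and 0 of 3 collagens and laminins. RNA-binding proteins had 0 of 2, phosphodiesterases 1 of 4, transcription factors 1 of 5 and cadherins 2 of 6. Voltage-gated channels had 3 of 10, glutamate receptors and axon guidance 3 of 6, and receptor tyrosine phosphatases 2 of 4. The Wnt list had 1 of 1. Ncam1 (296 kb), Sdk2 (294 kb) and Cntnap4 (290 kb) lay close under the limit, and Cntn2 (26.6 kb) and Cadm4 (5.35 kb) were short.

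The neuregulins and ErbB receptors, a pair of ligand and receptor families that act in synapse formation and myelination, split by member. The receptor gene Erbb4 (1053 kb) and the ligand genes Nrg1 (988 kb) and Nrg3 (984 kb) were all near 1000 kb. In these 3 the longest intron was the first, beside 37.1% of all very long models with at least 5 introns. The other 2 matched members, Nrg2 (182 kb) and Nrg4 (53.0 kb), were shorter.

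The neurotransmitter receptor lists were mixed. Of 17 glutamate receptor genes, 6 were very long, with a list median of 115 kb. These were the delta receptor gene Grid1 (762 kb), the kainate receptor genes Grik2 (581 kb) and Grik1 (378 kb), the NMDA receptor gene Grin2a (433 kb) and the AMPA receptor genes Gria4 (384 kb) and Gria1 (323 kb). Members of the same receptor classes were far shorter, such as the NMDA receptor genes Grin1 (27.3 kb) and Grin2c (19.1 kb) and the AMPA receptor gene Gria2 (115 kb). Of 10 GABA-A receptor subunit genes, 3 were very long, among them Gabrg3 (482 kb) and Gabrb1 (379 kb).

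Among neurexins and their synaptic partners, 3 of 11 matched genes were very long, namely Nrxn3 (1111 kb), the teneurin gene Tenm2 (958 kb) and the latrophilin gene Adgrl3 (445 kb, or 746 kb in RefSeq). Tenm4 (2360 kb in RefSeq), Tenm3 (1722 kb) and Nlgn1 (866 kb) had no matched model and enter neither number. Of 25 cadherins, 6 were very long. Cdh13, which lacks the cytoplasmic domain of other cadherins, was the longest (951 kb), followed by Cdh4 (471 kb) and the atypical cadherin gene Fat3 (469 kb), which carries 13641 bp of exon. The axon guidance list had 6 of 43, led by the netrin receptor gene Dcc (1026 kb), the ephrin receptor gene Epha6 (914 kb) and the Robo ligand gene Slit3 (596 kb). Of 13 receptor tyrosine phosphatases, 4 were very long, from Ptprk (539 kb) to Ptprt (1079 kb).

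The large list of voltage-gated channels was drawn by gene symbol (Cacna, Cacnb, Kcn, Scn and Hcn), so some members may not be voltage-gated. Of its 81 matched genes, 10 were very long. They comprised 3 calcium channel subunits, namely Cacna2d3 (833 kb), Cacna2d1 (437 kb) and Cacna1d (436 kb), and 7 potassium channel subunits, led by Kcnq5 (527 kb) and Kcnd2 (499 kb). Among the lists that act in the nucleus, in the cytoplasm or outside the cell, the transcription factors had 5 of 11, led by Camta1 (807 kb) and the retinoid-related receptor gene Rora (735 kb). The phosphodiesterases had 4 of 20 (Pde4d, Pde1c, Pde4b and Pde7b), the RNA-binding proteins 2 of 11 (Celf2 and Msi2), and the collagens and laminins 3 of 39 (Lama2, Col25a1 and Col19a1).

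In the Wnt pathway list, only the Wnt receptor gene Ror1 (349 kb) of 33 matched genes was very long (3.03%, beside 1.85% over all matched models). The list had a median of 22.1 kb, beside 14.9 kb over all matched models. Its 6 frizzled receptor genes ranged from Fzd10 (1.75 kb) to Fzd3 (56.8 kb). The ribosomal protein genes, a list of compact housekeeping genes, had 0 of 62 and a median of 3.50 kb. No model matched a symbol of the olfactory receptor list. All lists together held 66 of the 238 named very long models (27.7%).

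**Figure D4:**
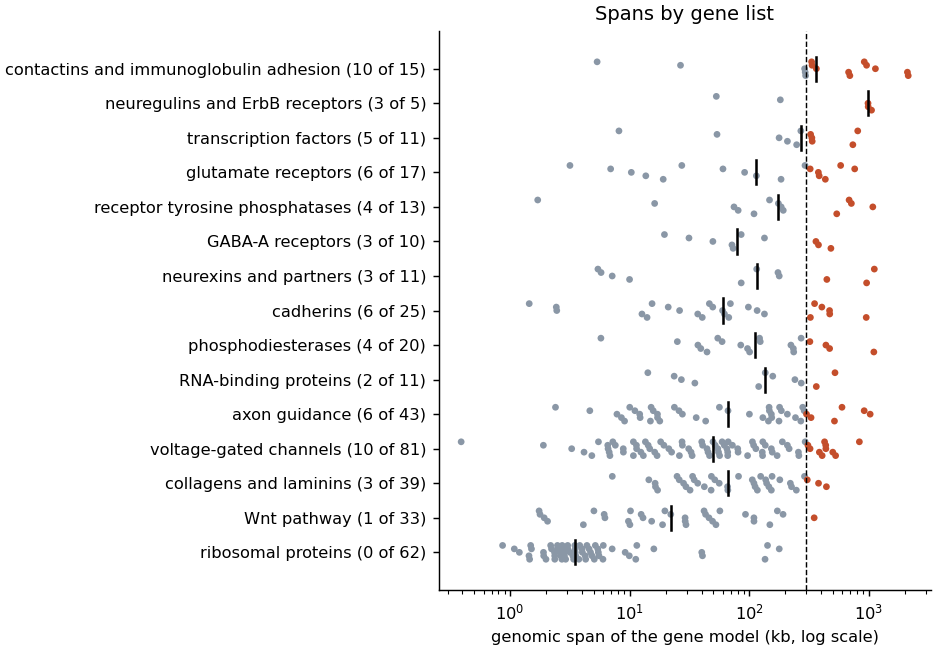
Genomic span (horizontal, kb, log scale) of each matched gene model by gene list, 1 point per gene, with a bar at the list's median and a line at the 300 kb limit. The contactin and immunoglobulin adhesion list has its median at 364 kb, right of the limit, while the Wnt list sits at 22.1 kb and the ribosomal proteins at 3.50 kb.

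Not every long RefSeq gene had a very long model at its place. RefSeq lists 330 protein-coding genes of at least 300 kb on the shared sequences, and 232 of them (70.3%) were matched by a very long model. Of the other 98, 26 were matched to a shorter model, 48 held 2 or more gene models mostly inside them, and in 33 the longest model inside spanned less than 100 kb. Tenm4, a teneurin of 2360 kb in RefSeq on chromosome 22, is the longest of them. It held 4 gene models, of which the longest spans 451 kb. The lipoprotein receptor gene Lrp1b (1800 kb) held 6 models, 2 of them very long, the splicing factor gene Rbfox1 (1689 kb) held 2, and Dlg2, a postsynaptic scaffold (1687 kb), held 4 with the longest at 180 kb.

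Elsewhere the longest model inside was shorter still. The neuroligin gene Nlgn1 spans 866 kb in RefSeq, and the longest model inside it spans 8.34 kb. For Auts2, a transcriptional regulator of neurons, the values were 1103 and 40.3 kb, and for the metabotropic glutamate receptor gene Grm5 344 and 91.9 kb. The calcium channel gene Cacna1e, at 492 kb, held a single model of 0.147 kb, and Astn1 (346 kb) held none. In total, 9 of the 98 held a very long model mostly inside. The strand and exons of the models inside were not compared with those of the RefSeq gene, and some may be separate genes. These genes were named after their values were seen.

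**Figure D5:**
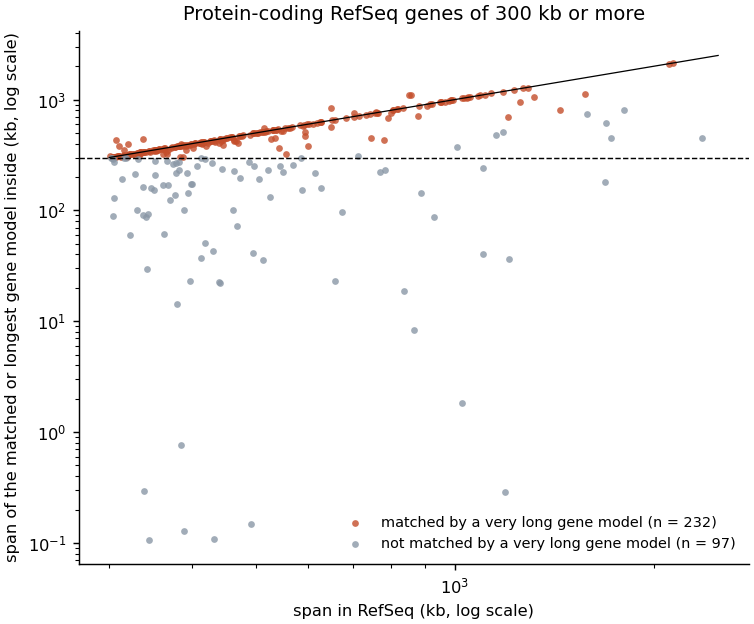
Span in RefSeq (horizontal, kb, log scale) against the span of the matched or of the longest gene model inside (vertical, kb, log scale) for protein-coding RefSeq genes of 300 kb or more, with a line of equal spans. Most of the 232 genes matched by a very long model lie close to the line (200 of all 238 matched models were within 10% of the RefSeq span), while others such as Nrxn3 lie off it, and 97 others lie under it, among them Cacna1e at 0.147 kb. Astn1 holds no model and is not drawn.

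The 18 very long models without a match were of 2 kinds. In 11 of them, at least 95% of the model lies inside 1 longer protein-coding RefSeq gene. These lie in Lrp1b (2 models), Dpp10, Rbfox1, Robo2, Pcdh15, Tenm4, Tenm3, Dennd1a, Robo1 and Nav3. The other 7 are longer than the RefSeq gene they overlap most.

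The 2 longest models of all belong to the second kind. ENSMOCG00000014231 runs on LG9 from 5426575 to 10839027 (5412453 bp). It has 22 blocks in 2 tight groups with a gap of 5378 kb between them, which is 99.4% of its span. The model overlaps 44 RefSeq genes. ENSMOCG00000010754 runs on chromosome 4 from 27785833 to 32214213 (4428381 bp). Its first block measures 21 bp and stands 4294 kb from the next, and the model overlaps 94 RefSeq genes. Without that block it would span 134120 bp.

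The span of many others also depended on an outer block. When the first or last block with the widest gap to its neighbour was removed, 115 of the 344 (33.4%) fell under 300 kb. The 143 models of 300 to 400 kb start close to the limit, so some can cross it by losing a small stretch. For Asic2, an acid-sensing ion channel, the span went from 1089 to 280 kb, for Nrg1 from 988 to 190 kb, and for Cadm2 from 916 to 289 kb. Of these 115, 92 lay on shared sequences and 86 were matched, and for 83 of the 86 the RefSeq gene itself reached 300 kb.

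The introns of very long genes house other genes. A total of 146 very long models (42.4%) held at least 1 other whole gene model, in contrast to 6.28% of the other nuclear models, whose spans offer far less room. The models inside numbered 316, and 312 of them lay within a single intron of the host, while 3 were themselves very long. The 2 longest models held 110 of the 316. Without these, 144 of 342 very long models (42.1%) were hosts and held 206 models. Of the 206, 151 (73.3%) had a single exonic block, the median exonic length was 153 bp, and 102 (49.5%) lay on the strand opposite to the host. Over the other nuclear models, 20.1% had a single block and the median exonic length was 1414 bp.

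Only 20 of the 154 such models on shared sequences matched a protein-coding RefSeq gene, and 18 of these 20 lay on the opposite strand. Lrrtm3, a synaptic adhesion protein and neurexin ligand, lies in intron 6 of Ctnna3 and itself spans 174 kb. The receptor genes Gpr34, of microglia, and Gpr82 both lie in intron 5 of Cask, a synaptic scaffold. Timp3, a metalloproteinase inhibitor, lies in intron 5 of Syn3, a synapsin, and the leucine-rich repeat gene Lrrn3 in intron 2 of Immp2l. The ubiquitin ligase gene Trim32 lies in intron 16 of Astn2, Cstf2t in intron 5 of Prkg1, Vsir in intron 35 of Cdh23 and Lrtm1 in intron 27 of Cacna2d3. The 2 on the host's strand were Pou5f2 in intron 8 of Fam172a and Nsmce3 in intron 2 of Fam189a1. Reads from an unspliced host that cover an inner exon on the opposite strand can be told from those of the inner gene by strand. For an inner gene on the host's strand, strand does not separate them. The libraries were made with a directional kit, and whether the counting used strand is not given in the sources used here.

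Overlap of exons themselves was rare. Only 6 very long models (1.74%) shared an exonic base with another gene model, against 4.25% of the others, and 5 of the 6 shared it on the same strand. Among the named ones these were Pde4d, Dennd1a and Dnah9. The exonic length was a multiple of 3 in 61.0% of very long models and 51.5% of the others.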

How the data were processed

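RNA of 23 samples was sequenced. The authors trimmed reads, aligned them with STAR to MicOch1.0 and counted them per gene with featureCounts (Trim Galore, bcl2fastq and edgeR are also named in the submitters' notes). The deposited table gives each gene's exon coordinates and exonic length in bp, with 23 count columns. These columns match 0 sample labels and were left out, so depth was not analysed here.

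Exons were merged per gene, and span was highest end minus lowest start plus 1. Introns are gaps between merged blocks. A RefSeq match needed each to be the other's best and 50% of both spans shared. The planned same-strand condition was dropped, because the RefSeq table used here has no strand. Genes named by rule were the 10 of largest span, the 3 on each side of the limit and members of gene family lists, of which a few withheld genes are not reported here. Other genes were named after their values were seen. Members and lists were chosen with earlier results of these data known. Promoter and protein sequences were not used here. Python 3.11.15 with numpy 2.4.6, scipy 1.17.1 and matplotlib 3.10.9 was used, and the code was tested on simulated data (2493 of 2493 answers recovered).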

Additional observations from a re-analysis of the deposited data

How the results depend on the processing

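The number of very long models (344) was 651 at a limit of 200 kb, 128 at 500 kb, and 229 when the far outer block was removed, and it was 354 with the X chromosome kept. The median longest intron (160 kb) was 111 kb at 200 kb and 254 kb at 500 kb, while exonic length and number of blocks moved little. Without merging, the median number of exons was 30 in place of 18 blocks. The share with a RefSeq gene (93.0%) was 98.4% when 1 shared base sufficed and 83.2% at 80% of each span. The hosts of other models (146) numbered 85 when only models on the host's strand were counted and 84 when only models on the opposite strand were, and hosts of both kinds enter both numbers. Exonic sharing (1.74%) was 0.581% at a minimum of 50% of the exonic bases. Without the 2 longest models, an alternative chosen after seeing the data, 206 in place of 316 models lay inside a very long span. The very long spans then covered 182 in place of 190 Mb. When 1 shared base sufficed, the very long members of the gene lists went from 3 to 5 in neurexins and partners, from 6 to 8 in axon guidance, from 6 to 7 in cadherins and from 2 to 3 in RNA-binding proteins, and the other lists kept their counts. Promoter GC and protein length were planned and not run. No paired analysis was possible because no count column could be tied to a sample and no result comes from a test.

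The spans rest on 1 annotation of 1 draft assembly. Gene names rest on position without strand, and a gene on the other strand is not told apart. The 88 very long models on unplaced scaffolds have no name here. Whether these genes were expressed in the dentate gyrus, and whether any differed between the groups, was not analysed here.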

Other observations

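Several of the named very long genes are known from other mammals as sites of chromosome breakage under replication stress. Fhit, a nucleotide hydrolase gene on chromosome 6, has 453 bp of exon in 6 blocks over 800 kb, with a first intron of 529 kb, and the model covers 55.5% of its RefSeq span of 1441 kb. Wwox, an oxidoreductase gene on chromosome 4, has 1254 bp in 11 blocks over 880 kb, and its longest intron (601 kb) is the ninth. Immp2l, a mitochondrial peptidase gene on chromosome 1, has 528 bp in 5 blocks over 754 kb. Dpyd, a pyrimidine catabolism gene on chromosome 21, has 4400 bp in 23 blocks over 764 kb and no intron above 88.1 kb. Genes of the presynaptic release site were also present, from Ppfia2 (334 kb) and Unc13c (429 kb) through Cadps (444 kb) and Rims1 (471 kb) to Erc2 (868 kb). All of these genes were chosen after their values were seen.

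A stretch of chromosome 10 carries genes that lie on the X chromosome in mouse and human. All 20 such genes looked up, among them Foxp3, Cask, Gpr34 and Gpr82, lie on chromosome 10 of the assembly between 34655576 and 40340115, a stretch of 5.68 Mb with 72 gene models. Of the very long models, only Cask (ENSMOCG00000007637, 316803 bp, from 40023415 to 40340217) lies there. Leaving out the X chromosome, which holds 10 very long models, therefore did not leave out this stretch. The cause was not tested. The list was drawn up after the position of Cask was seen.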
